A study of Mus musculus with 2 samples.

Results

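The miR-181 family of the mouse comprises 6 microRNA genes, Mir181a-1, Mir181b-1, Mir181a-2, Mir181b-2, Mir181c and Mir181d, which lie as 3 pairs on 3 chromosomes. They were taken by symbol from GENCODE M21 and matched by Ensembl identifier, and all 6 were among the 2202 genes of the deposited microRNA count tables. The tables come from microRNA sequencing of whole gastrocnemius, the large calf muscle, of male B6CASTF1/J mice at 2 months of age, the first-generation cross of C57BL/6J with the wild-derived strain CAST/EiJ. There is 1 group with 2 libraries, biological replicates 1 and 2, whose labels give a mouse number each and 1 shared donor record, and no treatment or second genotype. The data therefore give levels of the family and the difference between 2 libraries, and no comparison of conditions. The microRNA genes of replicate 1 received 638779 counts and those of replicate 2 received 2272132, so values of replicate 2 carry less counting error.

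MicroRNAs are cut from a hairpin precursor, whose 5p or 3p arm is loaded into an Argonaute protein and guides it to messenger RNAs, mainly by pairing of the seed, bases 2 to 8 of the arm. The miR-181 family is best known from lymphocytes, where miR-181a sets how strongly the T-cell receptor signals. In muscle the family is known to rise as myoblasts differentiate and to repress the homeobox gene Hoxa11.

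The 6 genes encode 4 different 5p arms, shown here because their identity decides which reads can be assigned to 1 gene. All are given 5′ to 3′ from RefSeq (GRCm38.p6), with the seed in capitals.
miR-181a-5p (Mir181a-1 and Mir181a-2): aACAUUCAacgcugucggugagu
miR-181b-5p (Mir181b-1 and Mir181b-2): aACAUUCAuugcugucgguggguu
miR-181c-5p: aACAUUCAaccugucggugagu
miR-181d-5p: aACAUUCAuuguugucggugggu

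All 4 arms have the seed ACAUUCA. Of 1738 mature entries of the RefSeq table, 6 have this seed, and 0 of them belong to a gene outside the family. Beyond the seed the arms differ at few bases. Counted from 1 at the 5′ end of miR-181a-5p, miR-181b-5p differs by A9U, C10U and A21G and is 1 base longer. miR-181d-5p differs from miR-181b-5p by C12U and lacks its last base. miR-181c-5p equals miR-181a-5p without the base at position 11.

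The 3p arms, which lie on the other side of the hairpin, are all different, so each names its gene. They are shown with the seed in capitals.
miR-181a-1-3p: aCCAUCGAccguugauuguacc
miR-181a-2-3p: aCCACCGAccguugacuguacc
miR-181b-1-3p: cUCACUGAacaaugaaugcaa
miR-181b-2-3p: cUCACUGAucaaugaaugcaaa
miR-181c-3p: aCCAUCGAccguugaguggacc
miR-181d-3p: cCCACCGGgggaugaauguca

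The 3p arms fall into 4 seeds. CCAUCGA is shared by Mir181a-1 and Mir181c, UCACUGA by Mir181b-1 and Mir181b-2, CCACCGA belongs to Mir181a-2 alone and CCACCGG to Mir181d alone among the 6. The change in the seed of miR-181a-2-3p against miR-181a-1-3p is U5C, and these arms also differ by U16C. miR-181c-3p differs from miR-181a-1-3p by U16G and U19G. miR-181b-2-3p differs from miR-181b-1-3p by A9U and is 1 base longer.

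The deposited tables count a read for a gene only when it matches 1 place. Reads that match several places made up 75.2% of all reads in replicate 1 and 74.4% in replicate 2, and they stand in a row of their own, outside every gene's count. For 4 of the 6 genes the hairpin holds a run of 20 or more bases identical to another annotated microRNA gene, and these hairpins are shown with that run in capitals.
Mir181a-1: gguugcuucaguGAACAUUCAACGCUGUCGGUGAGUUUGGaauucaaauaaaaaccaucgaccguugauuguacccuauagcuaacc
Mir181a-2: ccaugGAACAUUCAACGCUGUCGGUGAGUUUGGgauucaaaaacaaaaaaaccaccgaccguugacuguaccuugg
Mir181b-1: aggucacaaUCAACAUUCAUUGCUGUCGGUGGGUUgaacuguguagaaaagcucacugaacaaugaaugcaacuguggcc
Mir181b-2: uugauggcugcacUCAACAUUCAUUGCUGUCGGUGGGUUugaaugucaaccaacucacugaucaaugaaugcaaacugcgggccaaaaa

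The run shared by Mir181a-1 and Mir181a-2 is 28 bases long and that shared by Mir181b-1 and Mir181b-2 is 26 bases. Each holds the whole mature 5p arm and none of the 3p arm. In the a pair the identity goes on for 4 bases past the annotated end of the 5p arm, while in the b pair it ends with the arm. Mir181c and Mir181d had no such run, and their longest identical stretch with any other family member was 17 bases for Mir181c (with Mir181a-1 and with Mir181a-2) and 13 bases for Mir181d (with Mir181b-1). Both of their arms thus occur in 1 annotated microRNA gene only. The counts of the 4 genes with a shared run are read as uncertain, since a read of exactly miR-181a-5p or miR-181b-5p matches 2 genes. The tables do not separate the arms, and sequence beyond the annotated microRNA genes was not searched.

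**Figure D1:**
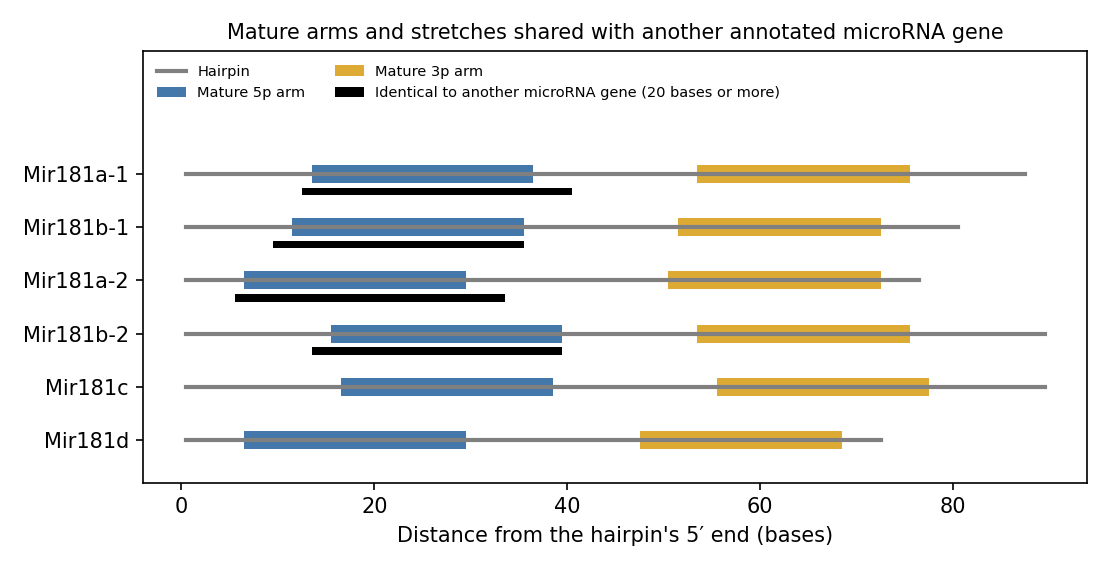
Each line is 1 hairpin drawn from its 5′ end (x axis, bases), with the mature 5p and 3p arms as boxes and stretches of 20 or more bases identical to another annotated microRNA gene as black bars. The black bars, 28 bases in the a pair and 26 in the b pair, cover the whole 5p arm of 4 genes, no 3p arm, and nothing of Mir181c or Mir181d.

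The 3 pairs differ in their surroundings (mm10 assembly, GENCODE M21). Mir181a-1 (ENSMUSG00000065565.1, chr1:137966455-137966541) and Mir181b-1 (ENSMUSG00000065458.1, chr1:137966639-137966718) lie on the plus strand, 97 bases apart, in an intron of the noncoding gene Gm4258. All 80 bases of Mir181b-1 and the last 11 of Mir181a-1 also lie in an exon of the long noncoding RNA A430106G13Rik on the same strand. Both lie opposite an intron of the long noncoding RNA Gm26936. Mir181a-2 (ENSMUSG00000065423.1, chr2:38852735-38852810) and Mir181b-2 (ENSMUSG00000065578.1, chr2:38853830-38853918) lie 1019 bases apart on the plus strand, opposite an intron of Nr6a1, which encodes an orphan nuclear receptor. Mir181b-2 is also covered by Gm44144, an unconfirmed transcript on the other strand. Mir181c (ENSMUSG00000065483.2, chr8:84178873-84178961) and Mir181d (ENSMUSG00000076338.1, chr8:84178716-84178787) lie 85 bases apart on the minus strand, in an intron of Nanos3, an RNA-binding protein of germ cells, on the same strand. For all 6 genes the count on the opposite strand was 0 in both libraries, and the counts with strand ignored were the same as those on the gene's own strand.

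The family was a minor part of the assigned microRNA counts in gastrocnemius and came mostly from Mir181c, Mir181b-2 and Mir181d. Levels are given as counts per 1000000 counts assigned to microRNA genes of the library (CPM), with exact 95% Clopper-Pearson intervals. Each interval uses the counts of 1 library and covers counting error only. PCR copies of 1 molecule cannot be recognised without molecular identifiers, so the intervals may be too narrow even for that. The 6 genes together had 889 counts in replicate 1, or 1392 CPM (1302 to 1486), and 3000 counts in replicate 2, or 1320.3 CPM (1274 to 1368). The intervals overlapped, and the mean was 1356 ± 50.5 CPM (SD, n = 2), or 0.139% and 0.132% of assigned counts. This sum leaves out reads that match both genes of the a pair or of the b pair, so it is no measure of all miR-181 in the tissue.

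Mir181c, whose 5p arm occurs in no other annotated microRNA gene, stood at 487 CPM in replicate 1, from 311 counts, and at 380 CPM in replicate 2, from 864. Mir181d, its neighbour and equally free of shared runs, stood at 196 CPM in replicate 1, from 125 counts, and at 293 CPM in replicate 2, from 665. Mir181c was thus above Mir181d in both libraries, with intervals that did not overlap within either. Over the libraries Mir181c averaged 434 ± 75.4 CPM and Mir181d 244 ± 68.6 CPM (SD, n = 2).

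The gene pairs with identical 5p arms were uneven. Mir181b-2 reached 492 CPM in replicate 1, from 314 counts, and 349 CPM in replicate 2, from 792, a mean of 420.1 ± 101 CPM. Its copy Mir181b-1, with the same 5p arm, had 4 counts in replicate 1, or 6.26 CPM (1.71 to 16.0), and 3 counts in replicate 2, or 1.32 CPM (0.272 to 3.86), which in replicate 2 is the limit that a count of 0 would allow. Mir181b-2 therefore held 98.7% of the assigned counts of the b pair in replicate 1 (96.8 to 99.7%) and 99.6% in replicate 2 (98.9 to 99.9%). This share covers reads that match 1 of the genes only, and the split of the reads that match both is not in the tables. The base after the shared run is u in Mir181b-2 and g in Mir181b-1. A read of the 5p arm with an added U would thus match Mir181b-2 exactly, whichever gene it came from. The part of such reads in the share was not tested.

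Mir181a-1 reached 169 CPM in replicate 1, from 108 counts, and 110 CPM in replicate 2, from 249, a mean of 139 ± 42.1 CPM. Mir181a-2 reached 42.3 CPM in replicate 1, from 27 counts, and 188 CPM in replicate 2, from 427, a mean of 115 ± 103 CPM whose SD is nearly as large as the mean. The means of these 2 genes differ by less than either SD, and their order was not the same in both libraries: Mir181a-1 was higher in replicate 1 and Mir181a-2 in replicate 2. Mir181a-2 gave 20.0% of the assigned counts of the a pair in replicate 1 (13.6 to 27.7%) and 63.2% in replicate 2 (59.4 to 66.8%).

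**Figure D2:**
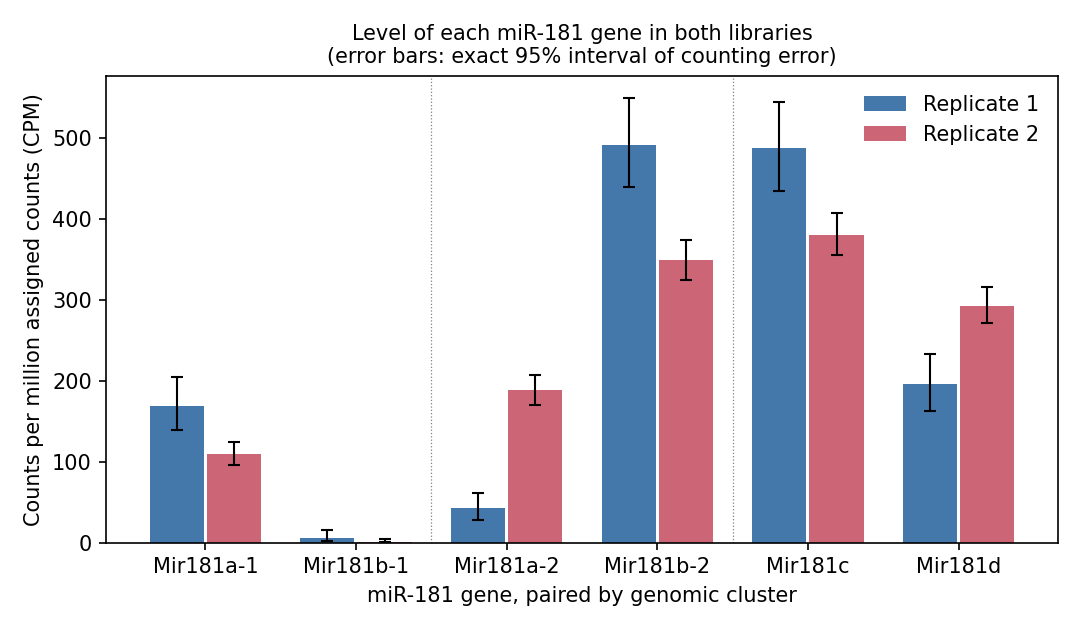
Bars give the CPM of each miR-181 gene (y axis) in replicates 1 and 2, with exact 95% intervals of counting error, and dotted lines part the 3 genomic pairs. Mir181c and Mir181b-2 are the highest in both libraries, Mir181b-1 is near 0 in both, and Mir181a-2 stands at 42.3 CPM in replicate 1 and 188 in replicate 2.

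Among all 2202 genes ordered by mean CPM, Mir181c ranked 86, Mir181b-2 88, Mir181d 103, Mir181a-1 128, Mir181a-2 139 and Mir181b-1 306. Counts in either library were found for 549 of the 2202. These ranks use assigned counts, which leave out reads of exactly miR-181a-5p or miR-181b-5p. Within the family, Mir181b-2 led Mir181c in replicate 1 and followed it in replicate 2, with overlapping intervals both times, so these 2 are not ordered. Mir181d came next after them in both libraries. Its interval overlapped that of the next gene, Mir181a-1, in replicate 1, and lay above that of the next gene, Mir181a-2, in replicate 2. Mir181b-1 was last in both, below the interval of its neighbour in the order.

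Summed by genomic pair, the family's assigned counts held the same order in both libraries. Reads of exactly miR-181a-5p or miR-181b-5p are left out of these sums, while the arms of Mir181c and Mir181d occur in no other annotated microRNA gene. The order is therefore not a like-for-like comparison of the pairs. The Mir181c and Mir181d pair had 683 CPM in replicate 1 and 673 in replicate 2 (678 ± 6.80, SD, n = 2), the Mir181a-2 and Mir181b-2 pair had 534 and 537 CPM (535 ± 1.89), and the Mir181a-1 and Mir181b-1 pair had 175 and 111 CPM (143 ± 45.6). The first pair gave 49.0% of the family's counts in replicate 1 and 51.0% in replicate 2, the second 38.4% and 40.6%, and the third 12.6% and 8.40%. The ratio of replicate 2 over replicate 1 was 0.986 for the first pair (interval of counting error 0.886 to 1.099). It was 1.005 for the second (0.891 to 1.137) and 0.633 for the third (0.504 to 0.798). The small SDs of the first 2 pairs therefore overstate how closely their sums are known. These 2 sums were close between the libraries to within those intervals, although their genes were not. Mir181c was 71.3% of its pair in replicate 1 (66.8 to 75.5%) and 56.5% in replicate 2 (54.0 to 59.0%). Mir181a-2 was 7.92% of its pair in replicate 1 (5.28 to 11.3%) and 35.0% in replicate 2 (32.3 to 37.8%). In the third pair Mir181a-1 gave 96.4% and 98.8%.

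**Figure D3:**
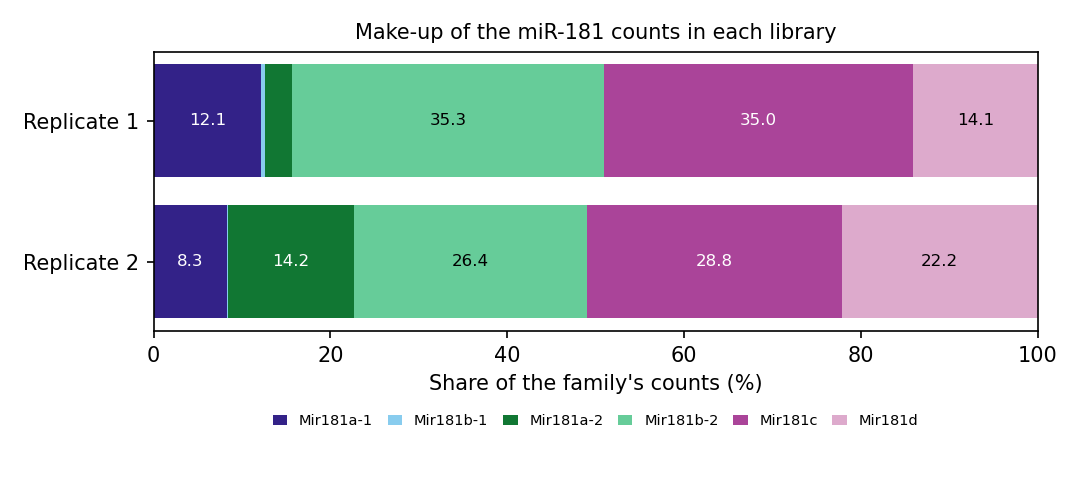
Each bar splits the family's assigned counts of 1 library (x axis, percent) by gene, with shares over 4% printed. Mir181a-2 takes 3.04% in replicate 1 and 14.2% in replicate 2, Mir181d 14.1% and 22.2%, Mir181b-2 35.3% and 26.4%, and Mir181c 35.0% and 28.8%.

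Against counting error, 2 family members were higher and 3 lower in replicate 2. The exact two-sided binomial test with Benjamini-Hochberg adjustment was run over the 311 genes whose counts in both libraries summed to 10 or more. It called 126 of them, or 40.5%, with 23.2% higher and 17.4% lower in replicate 2. Of the 6 members 5 reached that minimum and all 5 were called, while Mir181b-1, with 7 counts in all, was not tested. The test compares these 2 libraries, not conditions or mice in general.

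Mir181a-2 was 4.45-fold higher in replicate 2 (95% interval of counting error 3.01 to 6.83), with an adjusted p of 9.46e-20. Its log2 ratio of 2.13 was the 12th highest of the 311. Mir181d was 1.50-fold higher (1.23 to 1.83), with an adjusted p of 9.11e-05. The libraries' intervals of these 2 genes did not overlap. In whole muscle, a lower level may come from fewer cells of a type or from less RNA per cell, which cannot be told apart here.

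Of the 3 members lower in replicate 2, Mir181a-1 was at 0.648-fold (0.515 to 0.820), with an adjusted p of 0.000922. Mir181b-2 was at 0.709-fold (0.621 to 0.811), with an adjusted p of 2.70e-06. Mir181c was at 0.781-fold (0.685 to 0.892), with an adjusted p of 0.000901. The libraries' intervals did not overlap for any of these 3. Mir181b-1 was at 0.211-fold, with an interval of 0.0309 to 1.25 that includes no change.

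The median log2 ratio was -0.36 over the 5 tested members and 0.04 over all 311 genes, and the median absolute log2 ratio was 0.58 and 0.39. The mean levels of the 5 tested members, from 115 to 434 CPM, lay within 100 to 1000 CPM, a range set after their values were seen. In that wider range 49 of 87 genes were called (56.3%). Log2 ratios there ran from -1.04 to 2.13, the upper end being Mir181a-2 itself, and had a median absolute value of 0.33. For the family sum the ratio was 0.949, with an interval of 0.880 to 1.02 that includes 1. Without Mir181a-2, a gene left out after its values were seen, the sum was 1349 CPM in replicate 1 and 1132 in replicate 2, a ratio of 0.839 (0.777 to 0.908).

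With the spread between the libraries counted as noise, no member was called. edgeR's exact test, run with 1 common dispersion for the 311 genes, a coefficient of variation of 27.6%, called 2 genes (0.643%), and the unadjusted p was under 0.05 for 20 genes, Mir181a-2 among them. The adjusted p of Mir181a-2 was 0.0994, and that of each of the other 4 tested members was 1. With the dispersion taken from the 226 genes with 50 or more counts, an alternative added after the data were seen, the coefficient of variation was 26.1% and the adjusted p of Mir181a-2 by edgeR's exact test was 0.0535, with 0 members called. Both settings compare 1 library with 1, with noise estimated from the same difference.

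**Figure D4:**
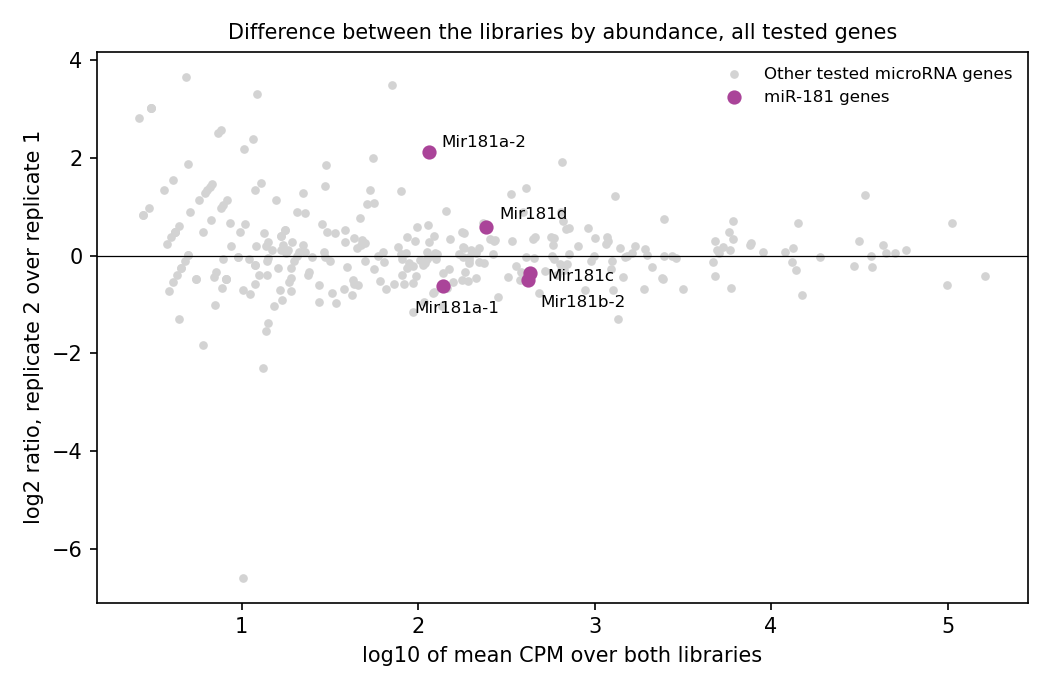
Each point is 1 of the 311 tested genes, by log10 mean CPM (x axis) and log2 ratio of replicate 2 over replicate 1 (y axis, prior count 0.5), with the 5 tested miR-181 genes marked. Mir181a-2, at 2.13, is the highest of the genes between 100 and 1000 CPM, while the other 4 lie between -0.63 and 0.58.

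The genes with levels most like those of the members, by distance of log2(CPM + 1) over the 2 libraries, are given as a description. Mir301 was nearest to Mir181c (distance 0.0221) and also to Mir181b-2 (0.105), with 490.0 CPM in replicate 1 and 375 in replicate 2. Mir329 was nearest to Mir181a-1 (0.0847), with 178 and 112 CPM. Mir409 was nearest to Mir181d (0.136), with 178 and 286 CPM. Mir431 was nearest to Mir181a-2, at the much larger distance of 0.702, with 45.4 and 116 CPM. Mir329, Mir409 and Mir431 belong to the imprinted Dlk1-Dio3 region. With 2 libraries such likeness rests on 2 values per gene.

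Lists of microRNAs of cell types held in whole muscle were read beside the family. Of the 11 striated muscle genes, Mir206, which is restricted to skeletal muscle, stood at 20325 CPM in replicate 1 and 48078 in replicate 2. Mir1a-1, Mir133a-1, Mir133a-2 and Mir133b, of the miR-1 and miR-133 families of muscle, had mean levels between 7.12 and 16.9 CPM in assigned counts. Such counts leave out reads that match several places. Mir1a-2, also of the miR-1 family, was higher, at 261 CPM in replicate 1 and 269 in replicate 2, and Mir1b had 0 and 3 counts. The 7 leukocyte genes summed to 2895 CPM in replicate 1 and 3576 in replicate 2. Of the 6 tested, 4 were higher in replicate 2, 1 was lower and 1 was not called, with a median log2 ratio of 0.27, where 40.5% of all 311 genes were called. By edgeR's exact test with the common dispersion 0 of the 6 were called, with adjusted p of 0.605 for Mir342 and 1 for the other 5. The higher ones were Mir342, at 197 and 473 CPM, Mir155, induced in activated leukocytes, at 1065 and 1314, Mir150, of mature lymphocytes, at 1068 and 1260, and Mir146, at 153 and 211. Mir142, found across blood cells, was lower, at 246 and 180 CPM. Mir223, of myeloid cells, was not called, at 164 and 136 CPM. Mir146b had 1 and 5 counts and was not tested.

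Of the endothelial list, Mir126a stood at 81286 CPM in replicate 1 and 129798 in replicate 2 and was higher in replicate 2 by the binomial test, with an adjusted p of 1 by edgeR's exact test, and Mir126b had 0 and 1 counts. Of the miR-181 members 2 were higher and 3 lower in replicate 2. The part of cell makeup in these differences was not tested.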

How the data were processed

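MicroRNA sequencing of 2 gastrocnemius libraries (inserts under 30 nt, per the labels) was analysed. The deposited values are raw counts per gene on mm10 with GENCODE M21, per the file headers deposited with each table. The aligner is not given in the sources used here, nor is the counter. Column 3 of each table was used, read as the gene's own strand because it held the largest total. The 4 rows that name no gene (unmapped, multi-mapping, no feature, ambiguous) stayed out of totals: unmapped reads were 5.97% and 6.93%, no feature 1.62% and 2.48%, and multi-mapping 75.2% and 74.4% of reads. A count of 0 allows up to 3 counts, 4.70 CPM in replicate 1 and 1.32 in replicate 2.

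CPM, exact intervals, the binomial test (threshold 0.05, prior count 0.5 for log2 ratios) and the sequence comparison used Python 3.11.15, scipy 1.17.1 and pandas 2.3.3. Scaling alternatives and the negative binomial test used R 4.3.3, edgeR 4.0.16 and DESeq2 1.42.0. The binomial test was first tested on simulated data with known fold changes. Those data held counting error alone, without further spread between libraries. The simulation therefore cannot show how the test performs on libraries that have such spread. All 6 genes matched RefSeq mature sequences (12 entries) and 5 matched hairpins. The assembly is that of C57BL/6J, and alleles of the other parent strain were not considered. Sharing was searched on both strands of the 2202 counted genes.

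Named genes are the 6 members, the nearest gene outside the family for each tested member, overlapping genes, the leukocyte and endothelial lists, and genes outside the family with the seed. Genes of the striated muscle and erythroid lists fall outside that rule and were chosen with their values known. Members and lists were chosen with earlier results of these data known. Alternatives were the column with strand ignored, other totals and scalings, other count minimums and priors, the negative binomial test, and leaving out each library.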

Additional observations from a re-analysis of the deposited data

How the results depend on the processing

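The levels depend on which column is counted. With strand ignored the members' counts were unchanged, while the gene totals fell to 447110 in replicate 1 and 1591442 in replicate 2. Mean CPM was then 1937 for the family, 968 for the Mir181c and Mir181d pair, 764 for the Mir181a-2 and Mir181b-2 pair and 204 for the Mir181a-1 and Mir181b-1 pair. By gene it was 619 for Mir181c, 600.0 for Mir181b-2, 349 for Mir181d and 199 for Mir181a-1. TMM and DESeq2 scaling and a total over Mir symbols alone moved each level by less than its SD. The 5 called members kept their direction and call under TMM and DESeq2 scaling, the column with strand ignored, a prior count of 2, and minimums of 1 and 50 counts. Under TMM the calls over all 311 genes were 57 higher and 64 lower, against 72 and 54. With edgeR's exact test and a common dispersion the members called fell to 0, under both dispersions. The log2 ratios there were 2.15 for Mir181a-2, 0.58 for Mir181d, -0.63 for Mir181a-1, -0.50 for Mir181b-2 and -0.36 for Mir181c. With each library left out, the rank by CPM ran from 117 to 178 for Mir181a-2, 267 to 359 for Mir181b-1, 122 to 142 for Mir181a-1, 99 to 113 for Mir181d, 81 to 93 for Mir181b-2 and 83 to 89 for Mir181c. Runs of 18 bases marked the same number of sharing genes, 4. No paired analysis was possible because there is 1 group. Depth limits Mir181b-1, with 4 and 3 counts.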

Other observations

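By the binomial test, which called 40.5% of all 311 genes, both erythroid genes were lower in replicate 2. Mir451a, which matures in red cells without Dicer, was measured at 5465 CPM in replicate 1 and 4110.2 in replicate 2, and its neighbour Mir144 at 711 and 577 CPM. Of the 11 striated muscle genes 10 were tested, 4 were higher in replicate 2, 0 were lower and 6 were not called, a share near that of all genes. The 4 were Mir206, Mir499 (784 and 1819 CPM), Mir208b (564 and 819 CPM) and Mir486 (889 and 1133 CPM). By edgeR's exact test with the common dispersion, 0 of these erythroid and muscle genes were called. Among the 6 muscle genes not called by the binomial test, the log2 ratio was -1.01 for Mir133a-2, -0.91 for Mir133b, -0.41 for Mir1a-1, -0.39 for Mir133a-1, 0.04 for Mir1a-2 and 1.34 for Mir208a.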
